A study of Homo sapiens with 16 samples.

Results

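The heat shock chaperones described here are 10 human genes of the cytosol and mitochondria, HSPA1A, HSPA1B, HSPA8, HSPH1, DNAJB1, BAG3, HSPB1, HSP90AA1, HSPD1 and HSPE1. They were taken by name as rows of a deposited expression table of 58735 genes in FPKM, that is, fragments divided by exon length and by library depth, after the table's Ensembl identifiers had been matched to GENCODE release 29. All 10 were found, and all 10 were among the 13088 genes that averaged 1 FPKM or more over all 16 libraries and were tested. RNA came from U2OS cells, a human osteosarcoma line, transfected with an siRNA against SETD2 (siSETD2) or with a non-targeting siRNA (siNT) and collected 48 h later. SETD2 is the methyltransferase that places 3 methyl groups on lysine 36 of histone H3. For the last 4 h each siRNA group received 2 µM VE-822, 2 mM hydroxyurea (HU) with 2 µM VE-822, 2 mM HU, or no drug (untreated). HU starves replication forks of deoxynucleotides, and VE-822 inhibits ATR, the kinase that senses stalled forks. Each of the 8 groups had a pair of libraries, R1 and R2 (16 in all). The labels do not say whether these were separate cultures, so p-values measure only the spread between libraries, which may be technical. Values of a group are given with R1 before R2.

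Heat shock chaperones keep proteins from misfolding and aggregating. HSP70 proteins bind and release unfolded segments in an ATP cycle that J-domain proteins start and that HSP110 and BAG proteins reset by exchanging the nucleotide, while HSP90 matures kinases and receptors, small heat shock proteins hold unfolded clients, and the HSP60 and HSP10 chaperonin folds proteins in the mitochondrial matrix. When unfolded proteins build up, the transcription factor HSF1 binds heat shock elements, arrays of the unit GAA in alternating orientation, and raises transcription of most of these genes. Cancer lines such as U2OS commonly keep a high basal level of several of them.

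Depth lay between 22310806 and 31101932 fragments per library, and the member with the fewest fragments in any library was HSPA1B at 641, a counting error of 3.95%. SETD2 itself stood at 2.01 to 4.62 FPKM in the 8 siSETD2 libraries and 7.34 to 9.25 FPKM in the 8 siNT libraries, so the knockdown held in every treatment and was partial. Its depth was uneven. Outside VE-822 alone, siSETD2 libraries held 2.01 to 2.64 FPKM in R1 and 3.67 to 4.17 FPKM in R2. With VE-822 alone they held 4.625 and 3.955 FPKM. The part of this in the siRNA comparisons was not tested. Of 6 mesenchymal markers, VIM, SPARC, CDH2 and COL1A1 averaged 21.6 to 165 FPKM, RUNX2 averaged 2.55 FPKM and TWIST1 was near 0 at 0.00968 FPKM. CLDN4 had the highest mean among 9 epithelial and blood cell markers, at 5.68 FPKM. The libraries treated with VE-822 alone stood apart. Taken over genes, R1 minus R2 differences of the other 6 groups correlated with each other at 0.363 to 0.746 (15 pairs), but with those of a VE-822-alone group at -0.0517 to 0.295 (12 pairs). Differences of the siSETD2 and siNT groups with VE-822 alone correlated with each other at 0.395 (1 pair). The labels do not say whether those 4 libraries were prepared apart from the others, so a difference of preparation cannot be told apart from the drug. Every fall or rise given for VE-822 alone has that limit. Fold changes of the members and medians of gene lists that rest on those 4 libraries are therefore also given within R1 and within R2. The R1 and R2 numbers may not match libraries with VE-822 alone to the others.

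Promoter sequence shows which members carry the HSF1 motif beside a listed start. In the RefSeq promoters of build GRCh38.p14 (250 bases before to 50 bases after each listed start), all 10 members were found, with 14 windows in all. An array of 3 units (GAANNTTCNNGAA or TTCNNGAANNTTC, both strands, overlapping matches counted) occurred in 3 of the 10 members (HSPA8, HSP90AA1 and HSPD1, 3 of 14 windows) and in 0.49% of 35116 human promoter windows. An array of 2 units (GAANNTTC or TTCNNGAA) occurred in 7 of the 10 members (all except HSPH1, BAG3 and HSPE1, 8 of 14 windows) and in 13.5% of the windows. The 3 members with the longer array and BAG3, the member that changed most with drug and that had no match, are shown as the 250 bases before the start, 5′ to 3′ on the gene's own strand, with the 3-unit arrays in capitals. For HSP90AA1 and HSPD1, which have 2 listed starts each, the window of the inner start is shown, because the outer one held no match. HSPA8 lies at chr11:123062137-123062386, HSP90AA1 at chr14:102087045-102087294 and HSPD1 at chr2:197499841-197500090, each on the minus strand. BAG3 lies at chr10:119651130-119651379 on the plus strand.
HSPA8: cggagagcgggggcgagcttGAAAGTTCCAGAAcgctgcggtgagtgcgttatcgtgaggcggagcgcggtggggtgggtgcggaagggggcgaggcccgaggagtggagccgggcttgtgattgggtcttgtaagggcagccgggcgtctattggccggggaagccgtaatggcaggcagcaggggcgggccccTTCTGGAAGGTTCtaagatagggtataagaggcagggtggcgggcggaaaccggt
HSP90AA1: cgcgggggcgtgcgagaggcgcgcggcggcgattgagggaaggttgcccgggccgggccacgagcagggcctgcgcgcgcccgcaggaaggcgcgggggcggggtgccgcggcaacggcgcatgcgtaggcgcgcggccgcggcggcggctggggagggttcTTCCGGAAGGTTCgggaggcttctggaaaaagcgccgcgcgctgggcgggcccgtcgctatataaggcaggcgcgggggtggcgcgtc
HSPD1: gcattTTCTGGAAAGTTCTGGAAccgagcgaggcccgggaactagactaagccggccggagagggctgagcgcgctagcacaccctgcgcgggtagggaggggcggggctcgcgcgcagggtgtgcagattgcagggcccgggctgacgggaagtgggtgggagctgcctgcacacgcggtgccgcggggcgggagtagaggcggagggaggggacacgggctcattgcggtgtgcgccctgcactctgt
BAG3: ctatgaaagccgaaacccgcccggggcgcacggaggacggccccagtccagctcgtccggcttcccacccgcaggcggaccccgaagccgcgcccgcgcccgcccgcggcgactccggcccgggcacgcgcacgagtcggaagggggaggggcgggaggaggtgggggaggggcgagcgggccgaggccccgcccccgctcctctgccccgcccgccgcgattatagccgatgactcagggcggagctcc
The arrays of HSPA8 begin at positions -230 and -55, that of HSP90AA1 begins at -88, and those of HSPD1 overlap each other at -245 and -240. The absence of a match says only that these letters were not in the window. HSPE1 is read on the plus strand, with its 250 bases before the start at chr2:197500129-197500378. The HSPD1 arrays lie outside that window but between the inner HSPD1 start and the HSPE1 start.

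Levels per exon length differed widely between members. HSPA8, the constitutive HSP70 that also uncoats clathrin vesicles, was highest with a mean of 424 FPKM over the 16 libraries. HSP90AA1, the stress-inducible cytosolic HSP90, averaged 218 FPKM, and HSPD1, the mitochondrial HSP60, averaged 209 FPKM. HSP90AA1 exceeded HSPD1 in 13 of 16 libraries, so these neighbours were not fully separated. The small heat shock protein HSPB1 (HSP27) followed at 94.5 FPKM, and BAG3, the exchange factor that hands HSP70 clients to autophagy, at 35.3 FPKM. HSPE1 (mitochondrial HSP10), HSPA1A (inducible HSP70) and HSPH1 (HSP110) could not be ordered, at 23.9, 23.8 and 23.4 FPKM: HSPE1 exceeded HSPA1A in 8 of 16 libraries and HSPA1A exceeded HSPH1 in 7 of 16. DNAJB1, the J-domain partner of inducible HSP70, averaged 19.3 FPKM, and HSPA1B, the other inducible HSP70 gene, was lowest at 15.5 FPKM. How reads shared by HSPA1A and HSPA1B were counted is not given, so the places of both genes in this order are uncertain. Apart from HSP90AA1 over HSPD1, the tied trio and HSPH1 over DNAJB1 (14 of 16 libraries), each member exceeded the next in all 16 libraries. HSP90AB1, the constitutive HSP90 outside this group, averaged 1340 FPKM. Pseudogenes can share reads with a member: those named for HSPA8, HSPD1 and HSPE1 number 17, 17 and 26 in the annotation and summed to 1.86, 1.08 and 0.997 FPKM.

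**Figure D1:**
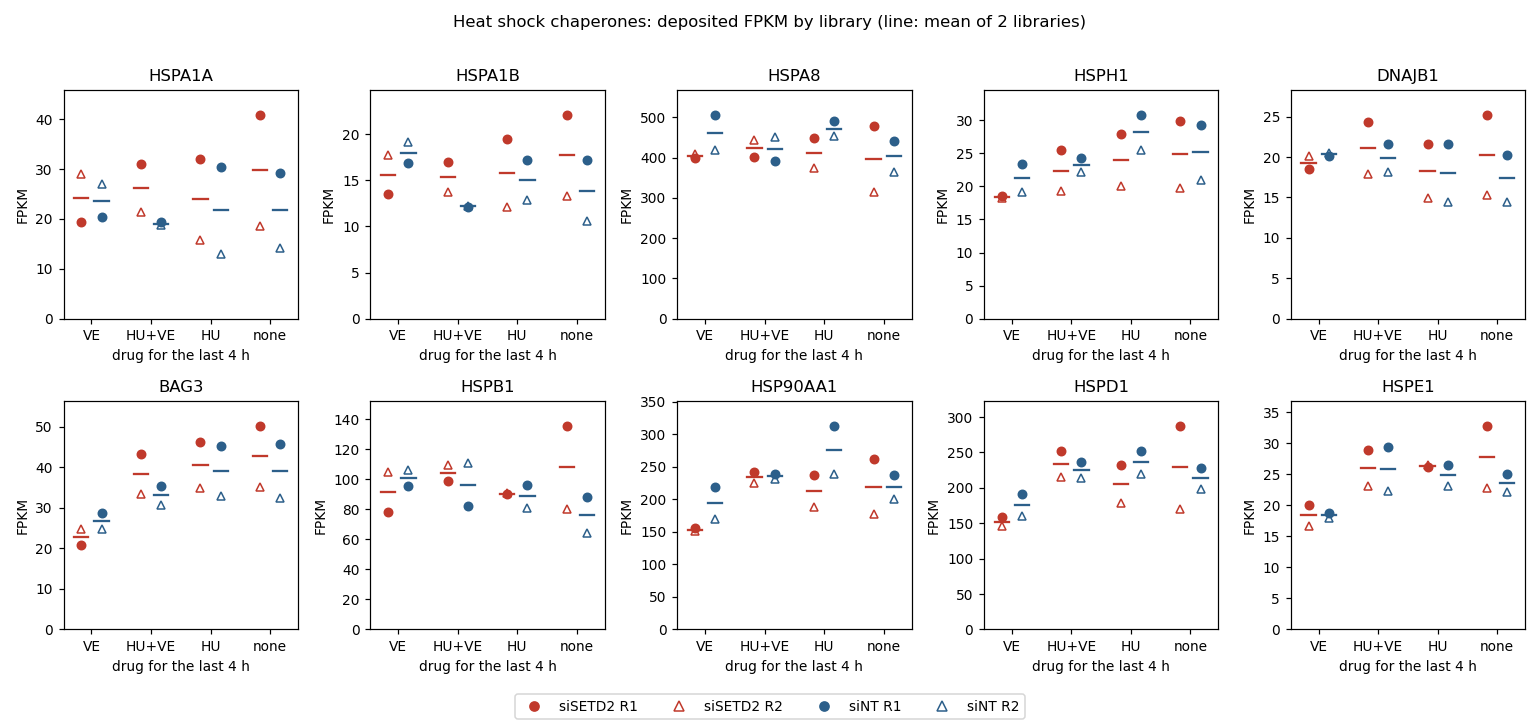
FPKM of each member (y axis, linear, from 0) by drug (x axis: VE-822, HU with VE-822, HU, untreated), with siSETD2 libraries in red and siNT libraries in blue, R1 as filled circles, R2 as open triangles and lines at the mean of 2 libraries. All 4 VE-822-alone libraries lie below every other library for BAG3, at 20.8 to 28.7 FPKM, and for HSPE1, at 16.7 to 20.1 FPKM, while HSPA1A is split mainly by library number. Of all genes tested, 16.5% had all 4 VE-822-alone libraries below the 4 untreated ones.

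HSPA1A (ENSG00000204389, chr6:31815464-31817946, plus strand) and HSPA1B (ENSG00000204388, chr6:31827735-31830255, plus strand) encode nearly the same inducible HSP70, so reads cannot be assigned cleanly between them. Of all 50-base windows of the longest HSPA1A transcript, 72.6% also occur in HSPA1B. HSPA1A took 50.1% to 64.9% of the summed FPKM of the pair over the 16 libraries, with a median of 60.7%, and their log2 values correlated across libraries at r = 0.905 (n = 16, a description, since the pair shares reads). With VE-822 alone HSPA1A stood at 19.4 and 28.9 FPKM in siSETD2 cells and 20.3 and 27.0 FPKM in siNT cells. With HU and VE-822 it stood at 31.0 and 21.4 FPKM in siSETD2 cells and 19.3 and 18.8 FPKM in siNT cells. With HU it stood at 32.1 and 15.8 FPKM in siSETD2 cells and 30.5 and 12.9 FPKM in siNT cells. Untreated cells held 40.9 and 18.6 FPKM with siSETD2 and 29.3 and 14.1 FPKM with siNT. R1 was above R2 in each of the 6 groups without VE-822 alone and below it in both groups with VE-822 alone, so no drug separated the libraries. HSPA1A was the most variable member, with a highest library, untreated siSETD2 R1, that held 3.17 times the lowest, siNT with HU R2. HSPA1B ran lower, between 10.6 and 22.1 FPKM, with the same highest library.

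BAG3 (ENSG00000151929, chr10:119651370-119677819, plus strand) was lower in the libraries with VE-822 alone. It stood at 20.8 and 24.9 FPKM in siSETD2 cells and 28.7 and 24.9 FPKM in siNT cells with VE-822, against 50.3 and 35.2 FPKM in untreated siSETD2 cells and 45.7 and 32.4 FPKM in untreated siNT cells. The 4 VE-822 libraries lay below the 4 untreated ones and below the lowest of all 12 other libraries, at 30.8 FPKM. All 4 lay below the 4 untreated ones in 16.5% of genes tested. The share of genes below all 12 others was not counted. Averaged over siRNAs, the log2 fold change of FPKM + 1 for VE-822 against untreated was -0.69 (SE 0.172, limma, Benjamini-Hochberg adjusted p = 0.0164, n = 4 libraries each), at -0.94 within R1 and -0.43 within R2. Group means were 22.8 ± 2.90 FPKM with VE-822 against 42.8 ± 10.7 FPKM untreated in siSETD2 cells, and 26.8 ± 2.73 FPKM with VE-822 against 39.0 ± 9.41 FPKM untreated in siNT cells (SD, n = 2). With HU and VE-822 together BAG3 stood at 43.4 and 33.5 FPKM in siSETD2 cells and 35.4 and 30.8 FPKM in siNT cells, against 46.3 and 34.97 FPKM in siSETD2 cells and 45.2 and 32.9 FPKM in siNT cells with HU alone, so these groups overlapped. The adjusted p exceeded 0.05 when any of 4 single libraries was left out: it was 0.0696 without untreated siNT R1, 0.0622 without siNT with VE-822 R2, 0.0530 without untreated siSETD2 R1 and 0.0640 without siSETD2 with VE-822 R1. With the replicate number as a block in the 6 groups outside VE-822 alone, it was 9.2e-05. The block takes the R1 to R2 difference of those groups out of the SE, which became 0.0834 for BAG3. It also sets the VE-822-alone libraries midway between R1 and R2, which was not tested. Adjusted p-values with the block may therefore be too small for comparisons that use VE-822 alone. Those without the block treat siSETD2 and siNT libraries of the same number as independent. The R1 to R2 differences of these libraries correlated, so p-values without the block may be too small as well.

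HSPE1 (ENSG00000115541, chr2:197499994-197503457, plus strand) and HSPD1 (ENSG00000144381, chr2:197486581-197516737, minus strand) encode the small and large subunits of the mitochondrial chaperonin. HSPE1 lies inside the annotated span of HSPD1 and head to head with the inner HSPD1 start. HSPE1 stood at 20.1 and 16.7 FPKM in siSETD2 cells and 18.8 and 18.0 FPKM in siNT cells with VE-822 alone, against 32.9 and 22.9 FPKM in untreated siSETD2 cells and 25.1 and 22.2 FPKM in untreated siNT cells. All 4 VE-822 libraries again lay below the 12 others, the lowest of which held 22.2 FPKM. HSPE1 fell, with a log2 fold change of -0.45 (SE 0.136, adjusted p = 0.0348, limma), at -0.54 within R1 and -0.36 within R2. HSPD1 stood at 158 and 147 FPKM in siSETD2 cells and 191 and 160 FPKM in siNT cells with VE-822, against 288 and 170 FPKM in untreated siSETD2 cells and 229 and 199 FPKM in untreated siNT cells. The siNT VE-822 R1 library lay above untreated siSETD2 R2, so the groups overlapped, and the log2 fold change of -0.41 did not pass without the block (SE 0.165, adjusted p = 0.0904, and 0.0108 with the block). It was -0.56 within R1 and -0.26 within R2. The HSPE1 call was weak: the adjusted p was 0.0524 to 0.123 when any single VE-822-alone library, either untreated siNT library or untreated siSETD2 R1 was left out, 0.0671 with no filter on low genes and 0.0651 after rescaling to TPM, against 0.00254 with the block. With HU and VE-822 together HSPE1 held 28.9 and 23.1 FPKM in siSETD2 cells and 29.3 and 22.2 FPKM in siNT cells, and HSPD1 held 253 and 216 FPKM in siSETD2 cells and 237 and 213 FPKM in siNT cells, all inside the range of the untreated libraries. Their exons overlap on opposite strands by 281 bases, 14.2% of those of HSPE1 and 6.62% of those of HSPD1, and without a stated use of strand these fragments cannot be told apart. The ratio of HSPD1 to HSPE1 stayed between 6.74 and 10.2 in all libraries, with a median of 8.88.

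HSP90AA1 (ENSG00000080824, chr14:102080738-102139699, minus strand) and HSPH1 (ENSG00000120694, chr13:31134974-31162388, minus strand) were lower with VE-822 alone in 3 of 4 libraries than in all 12 others, as was HSPD1. The share of all genes placed in this way was not counted. HSP90AA1 stood at 156 and 151 FPKM in siSETD2 cells and 219 and 170 FPKM in siNT cells with VE-822, against 262 and 177 FPKM in untreated siSETD2 cells and 237 and 201 FPKM in untreated siNT cells. Its log2 fold change was -0.33 (SE 0.153, adjusted p = 0.136, and 0.0274 with the block), at -0.43 within R1 and -0.23 within R2. HSPH1 stood at 18.6 and 18.3 FPKM in siSETD2 cells and 23.3 and 19.2 FPKM in siNT cells with VE-822, against 29.97 and 19.8 FPKM in untreated siSETD2 cells and 29.4 and 21.0 FPKM in untreated siNT cells. Its log2 fold change was -0.30 (SE 0.168, adjusted p = 0.207, and 0.0166 with the block), at -0.49 within R1 and -0.12 within R2. For both genes the siNT VE-822 R1 library was the one inside the range of the untreated libraries. Under HU alone HSP90AA1 reached its highest level, 313 FPKM in siNT R1.

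The remaining members did not pass in VE-822. HSPA8 (ENSG00000109971, chr11:123057489-123063230, minus strand) ranged from 400 to 506 FPKM with VE-822 alone against 314 to 478 FPKM untreated, a log2 fold change of 0.13. HSPB1 (ENSG00000106211, chr7:76302544-76304295, plus strand) ranged from 78.4 to 106 FPKM with VE-822 alone against 64.4 to 136 FPKM untreated, at 0.11. DNAJB1 (ENSG00000132002, chr19:14514770-14529770, minus strand) ranged from 18.5 to 20.52 FPKM with VE-822 alone against 14.4 to 25.2 FPKM untreated, at 0.11. HSPA1B was at 0.12 and HSPA1A at -0.01, a sign that turned to 0.02 under a median-ratio rescaling. Adjusted p-values of these 5 members lay between 0.538 and 0.986 (limma). R1 and R2 libraries gave opposite signs for all 5: HSPA1A differed by -0.77 within R1 and 0.75 within R2, HSPA1B by -0.35 and 0.59, HSPB1 by -0.33 and 0.55, DNAJB1 by -0.22 and 0.43, and HSPA8 by -0.03 and 0.29. The correlations above do not show that VE-822-alone and untreated libraries share their R1 or R2 number, so these are not matched replicate responses. For HSPA1A, untreated R1 lay above R2 and VE-822-alone R1 lay below R2 with both siRNAs. In bulk RNA a lower level in fewer cells and a lower level per cell cannot be told apart.

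Counted over the group, 2 of 10 members fell with VE-822 alone and 0 rose, where 24.7% of all genes tested were called (13.4% fell and 11.4% rose), so the members' count lay near the background. At an unadjusted p under 0.05 the count was 3 of 10, against 38.7% of genes. The median log2 fold change of the 10 members was -0.16 (-0.46 within R1 and 0.09 within R2), against -0.03 for all genes. All 4 VE-822 libraries lay below all 4 untreated ones in 2 of 10 members and in 16.5% of genes. With the block 5 of 10 fell, where 24.2% of genes fell and 20.7% rose: BAG3, HSPE1, HSPD1, HSP90AA1 and HSPH1. The count ranged from 0 to 4 when 1 library was left out: it was 0 without untreated siNT R1, untreated siSETD2 R1, siNT VE-822 R2 or siSETD2 VE-822 R1, it was 1 without untreated siNT R2, siNT VE-822 R1 or siSETD2 VE-822 R2, and it was 4 without untreated siSETD2 R2. The 4 blood markers summed to 2.43 to 2.98 FPKM with VE-822 alone and 1.08 to 2.02 FPKM untreated, and CD3D was the one among them that was tested and rose (log2 fold change 0.60, adjusted p = 0.00681), while PTPRC, LYZ and HBB had means of 0.0117 to 0.0207 FPKM. The 5 epithelial markers summed to 8.07 to 10.1 FPKM with VE-822 alone and 4.92 to 8.90 FPKM untreated, and neither of the 2 tested passed without the block. With the block CLDN4, at a log2 fold change of 0.46 (0.83 within R1 and 0.10 within R2), rose (adjusted p = 0.000241). The 6 mesenchymal markers summed to 294 to 337 FPKM with VE-822 alone and 306 to 460 FPKM untreated, with RUNX2 risen at 1.67 and VIM fallen at -0.59 (adjusted p = 3.9e-05 and 0.0197). Their part in the chaperone values was not tested.

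**Figure D2:**
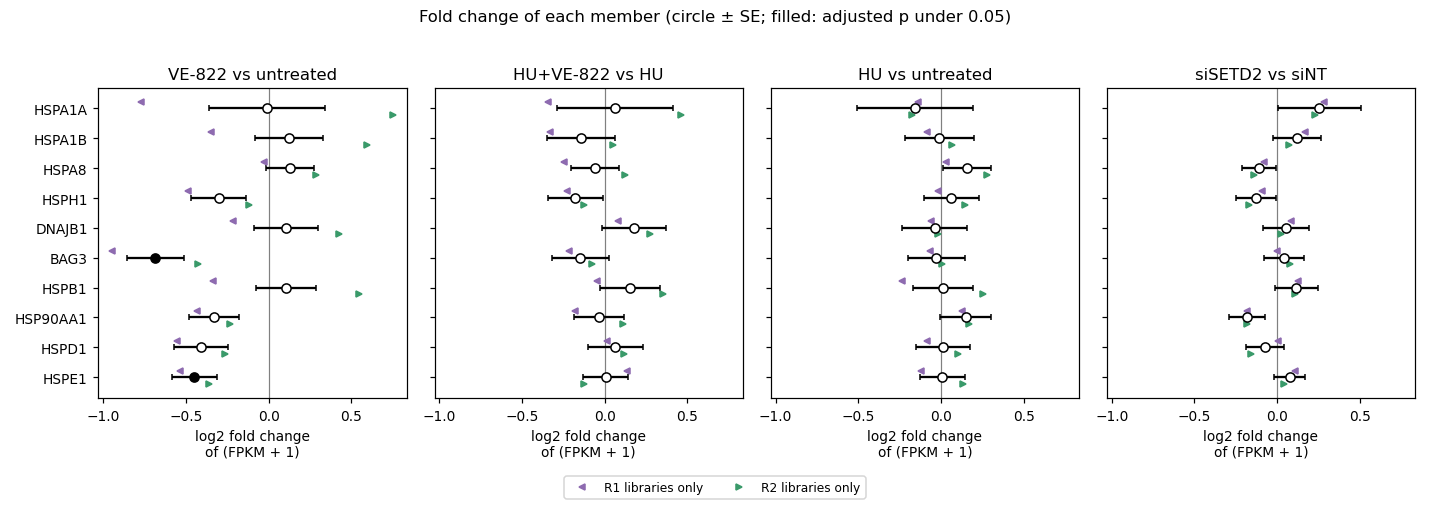
Log2 fold change of FPKM + 1 (x axis) of each member (rows) in 4 comparisons, with circles and bars for the limma estimate ± SE, filled where the adjusted p was under 0.05, and triangles for R1 and R2 libraries alone. Filled circles appear only for BAG3 at -0.69 and HSPE1 at -0.45 with VE-822 alone, and the R1 and R2 triangles straddle 0 there for HSPA1A, HSPA1B, HSPA8, DNAJB1 and HSPB1, the near-zero HSPA1A estimate changing sign under a median-ratio rescaling.

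No member passed the test for HU, or for VE-822 added to HU. With HU against untreated 0 of 10 members were called, where 0.107% of genes were, and none had an unadjusted p under 0.05 (limma). Fold changes on the log2 scale ran from -0.16 for HSPA1A, which turned positive when any of 4 single libraries was left out (untreated siSETD2 R1, siSETD2 with HU R2, siNT with HU R2 or untreated siNT R1), to 0.16 for HSPA8, with a median of 0.01. With HU and VE-822 against HU 0 of 10 members were called, where 0.00764% of genes were, again with none at an unadjusted p under 0.05. The range was -0.18 for HSPH1 to 0.18 for DNAJB1, with a median of -0.01. The SE of these estimates was 0.136 to 0.353. These fold changes use no VE-822-alone library, so omitting those 4 libraries cannot change them, though it changes the SE. Without them 0 members were called in both comparisons.

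Whether VE-822 acted differently in HU was examined as a comparison chosen after the data were seen, the VE-822 difference in HU minus that without HU. Of 10 members 0 were called, where 9.91% of genes were, and 2 of 10 had an unadjusted p under 0.05, against 28.8% of genes. BAG3 differed by 0.54 (SE 0.244, adjusted p = 0.173), HSPD1 by 0.47 (SE 0.233, adjusted p = 0.204) and HSPE1 by 0.46 (SE 0.192, adjusted p = 0.147). Within R1 these were 0.73, 0.57 and 0.67, and within R2 0.35, 0.38 and 0.24. With the block these 3 were called, at adjusted p = 0.00606, 0.0365 and 0.0210, where 17.9% of genes were called with a positive value. Without untreated siSETD2 R2, 2 members were called with no block. This comparison shares the untreated and VE-822-alone libraries with the one above, so it is not separate evidence.

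No member passed the test for SETD2 siRNA either. Averaged over the 4 treatments 0 of 10 members were called, where 0.13% of genes were, and none had an unadjusted p under 0.05 (limma). HSPA1A was highest at 0.26 (SE 0.249, adjusted p = 0.809), followed by HSPA1B and HSPB1 at 0.12 each, HSPE1 at 0.08, DNAJB1 at 0.05 and BAG3 at 0.04. HSPD1 was at -0.07, which turned to 0.01 under TPM rescaling, HSPA8 at -0.11, HSPH1 at -0.13 and HSP90AA1 at -0.18 (SE 0.108, adjusted p = 0.638). The median was 0.05, against -0.01 for all genes. Within 1 treatment 0 of 10 members were called in untreated cells, in HU, in VE-822 and in HU with VE-822, where 0% of genes were in each, and no member had an unadjusted p under 0.05, though 578, 337, 384 and 285 genes did. The median of the members was 0.16 in untreated cells (0.32 within R1 and 0.06 within R2) and 0.03 in HU (-0.06 and -0.01). It was -0.19 in VE-822 (-0.29 within R1 and -0.05 within R2) and 0.06 in HU with VE-822 (0.13 and 8e-04). With VE-822 alone 9 of 10 members were lower in siSETD2 than in siNT cells, while 47% of all genes were higher.

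The response to a drug was also compared between siRNAs. For HU, the response in siSETD2 minus that in siNT was called for 0 of 10 members and 0% of genes, and for VE-822 for 0 of 10 and 0%, with no member and 97 and 227 genes at an unadjusted p under 0.05. All 10 members had negative values in both, with medians of -0.23 for HU (-0.35 within R1 and -0.09 within R2) and -0.29 for VE-822 (-0.56 within R1 and -0.11 within R2), while 47.7% and 50.3% of genes were positive. Both comparisons use the same untreated libraries, and untreated siSETD2 R1 was the highest of all 16 libraries for 7 members: HSPA1A, HSPA1B, DNAJB1, BAG3, HSPB1, HSPD1 and HSPE1. In that library HSPB1 stood at 136 FPKM against 80.1 FPKM in its R2 partner, and HSPD1 at 288 FPKM against 170 FPKM.

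R1 and R2 libraries of the same group differed in most members. Leaving aside VE-822 alone, R1 exceeded R2 in all 6 groups for HSPA1A, HSPH1, DNAJB1, BAG3, HSP90AA1 and HSPD1, which is 6 of 10 members, against 17.5% of genes. R1 exceeded R2 in 5 of 6 groups for HSPA1B and HSPE1, 4 for HSPA8 and 3 for HSPB1. The geometric mean of the ratio of R1 to R2 was 1.79 for HSPA1A, 1.42 for DNAJB1 and 1.39 for HSPA1B, the inducible HSP70 genes and their J-domain partner. It was 1.33 for BAG3, 1.31 for HSPH1, 1.25 for HSPD1, 1.21 for HSP90AA1, 1.20 for HSPE1, 1.11 for HSPA8 and 1.10 for HSPB1. The mean R1 minus R2 difference was positive in 10 of 10 members and in 48.8% of genes. With VE-822 alone R2 exceeded R1 in both groups for HSPA1A, HSPA1B, DNAJB1 and HSPB1, with HSPA1A at 0.672 times R2 in siSETD2 cells and 0.751 times in siNT cells. What R1 and R2 differed by is not given in the sources used here, and its part in the chaperone levels was not tested.

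**Figure D3:**
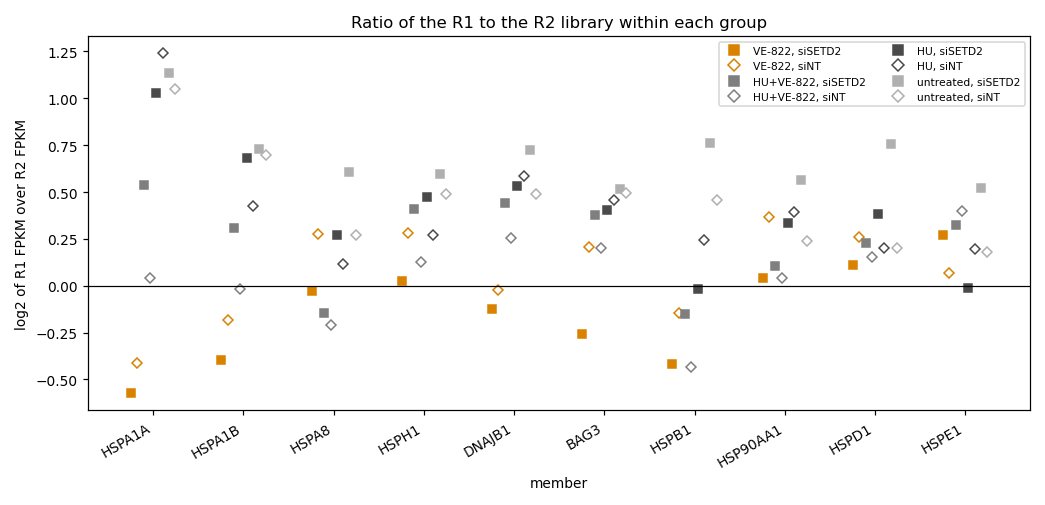
Log2 ratio of the R1 to the R2 library (y axis) for each member (x axis) in the 8 groups, with VE-822 alone in orange, other groups in grey, siSETD2 as filled squares and siNT as open diamonds. For HSPA1A the 6 grey points lie above 0, with ratios of 1.03 to 2.36, and both orange points lie below 0, at ratios of 0.672 and 0.751.

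Other chaperone genes were read from lists by role, beside the background of all genes with VE-822 alone, where 13.4% fell and 11.4% rose, or 24.2% and 20.7% with the block. Of 7 heat shock factors and their regulators 1 fell, or 3 with the block, and the median was -0.25 (-0.35 within R1 and -0.05 within R2). The gene was HSF1 itself, with 31.2 to 36.7 FPKM with VE-822 against 37.4 to 43.1 FPKM untreated (log2 fold change -0.29, adjusted p = 0.0395, limma). Its fold change was -0.43 within R1 and -0.16 within R2. Leaving out 1 library gave -0.34 to -0.24, and the call was lost in 8 of the 16 omissions, with a limma adjusted p of up to 0.143. Of 5 other HSP70 and HSP110 genes tested out of 9 listed, 2 fell, HSPA4, another HSP110, at -0.56 and HSPA12A at -0.47, with a median of -0.32 (R1 alone -0.30, R2 alone -0.33). With the block 3 of these 5 fell and 1 rose. Of 9 BAG and other exchange factors 1 fell, or 4 with the block, and the median was -0.13 (-0.37 within R1 and -0.08 within R2). BAG2, a brake on the ubiquitin ligase CHIP, was the gene that fell, at -0.52. Of 2 small heat shock proteins tested out of 9 listed, 0 passed without the block and 1 had an unadjusted p under 0.05. HSPB8, a small heat shock protein that partners BAG3, was at -0.97 (SE 0.385, adjusted p = 0.0868) and fell with the block (adjusted p = 2.6e-05). R1 libraries alone gave -1.51 for it and R2 libraries alone -0.44.

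Genes of the cytosolic chaperonin CCT and its partner prefoldin had negative values in 14 of 15, and 7 fell and 0 rose, or 12 and 0 with the block. Their median was -0.42 (-0.58 within R1 and -0.27 within R2), against -0.03 for all genes. PFDN2 fell by 1.03 and PFDN1 by 0.83 on the log2 scale, and CCT8, CCT3, PFDN4, TCP1 and CCT2 fell by 0.51, 0.50, 0.47, 0.42 and 0.42. PFDN1 stood at 7.24 to 9.16 FPKM with VE-822 against 11.9 to 18.1 FPKM untreated. The call of PFDN1 held without any 1 of the 16 libraries, that of PFDN2 was lost in 1 omission, and those of CCT8, CCT3, PFDN4, TCP1 and CCT2 were lost in 13, 6, 6, 11 and 10. The fold change of CCT8 ran from -0.71 to -0.30 over these omissions.

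Of 14 HSP90 genes and co-chaperones tested out of 15 listed 4 fell and 0 rose, with a median of -0.30 (-0.53 within R1 and -0.08 within R2): the kinase loader CDC37 at -0.72, the immunophilin FKBP4 at -0.66, CACYBP at -0.51 and the myosin chaperone UNC45A at -0.27. With the block 9 of the 14 fell and 1 rose. Over the 16 omissions of 1 library, the calls of CDC37, FKBP4, CACYBP and UNC45A were lost in 0, 5, 6 and 13. Of 13 mitochondrial chaperones and proteases 3 fell and 0 rose, or 6 and 0 with the block, with a median of -0.15 (-0.36 within R1 and -0.12 within R2). GRPEL1, the exchange factor of mitochondrial HSP70, was at -0.65, and the proteases LONP1 and CLPP were at -0.41 and -0.39. The calls of GRPEL1, LONP1 and CLPP were lost in 6, 1 and 5 of the 16 omissions. HSPD1 and HSPE1, of the same compartment, are not in that list. Folds differed in size between library numbers: PFDN2 was at -1.61 within R1 and -0.46 within R2, CDC37 at -1.10 and -0.35, and GRPEL1 at -1.07 and -0.24.

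J-domain proteins went both ways. Of 16 tested, 2 rose and 4 fell with VE-822 alone, or 4 and 8 with the block, with a median of -0.25 (-0.36 within R1 and -0.04 within R2). DNAJB12, a J-domain protein of the endoplasmic reticulum membrane, rose to 33.3 to 43.5 FPKM with VE-822, against 17.6 to 21.9 FPKM untreated, a log2 fold change of 0.92 (SE 0.158, adjusted p = 0.00256, limma), at 0.84 within R1 and 0.998 within R2. Its paralogue DNAJB14 rose by 0.49. The ribosome-bound DNAJC2 was at -0.78, DNAJB6, which keeps polyglutamine proteins from aggregating, at -0.60, DNAJC7 at -0.56 and DNAJC21 at -0.30. Endoplasmic reticulum chaperones, listed for contrast with the cytosolic members, had positive values in 14 of 14, with a median of 0.21 (0.14 within R1 and 0.18 within R2). Of these 1 was called: the disulfide isomerase PDIA4 rose by 0.59 (adjusted p = 0.0425), with 269 to 307 FPKM with VE-822 against 150 to 231 FPKM untreated. The PDIA4 call was lost in 7 of the 16 omissions of 1 library. With the block 5 of the 14 rose and 0 fell, where 20.7% and 24.2% of all genes did.

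Over all lists 94 different genes were tested and 25 were called, which is 26.6%, near the 24.7% of all genes. Of the 25, 22 fell and 3 rose. All 25 had the same sign within R1 and within R2, but they were called on the mean of these same differences, so this is no separate check. The call held without any 1 of the 16 libraries for 6: HSPA12A, DNAJB12, DNAJB14, DNAJC2, CDC37 and PFDN1. Another 8 lost it in 1 to 5 of the 16 omissions and 11 in 6 or more, and no sign changed. Omitting untreated siNT R1 ended 18 calls, omitting siSETD2 VE-822 R1 or R2 ended 17 each, siNT VE-822 R2 16, untreated siSETD2 R1 14, siNT VE-822 R1 11 and untreated siNT R2 7. In the comparisons of HU against untreated, of HU with VE-822 against HU and of siSETD2 against siNT averaged over treatments, 0 of 94 list genes were called without the block (limma), with 3, 2 and 5 at an unadjusted p under 0.05. With the block 2 of the 94, the mitochondrial unfoldase CLPX and the protease YME1L1, fell in siSETD2 averaged over treatments, where 2.22% of all genes did.

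**Figure D4:**
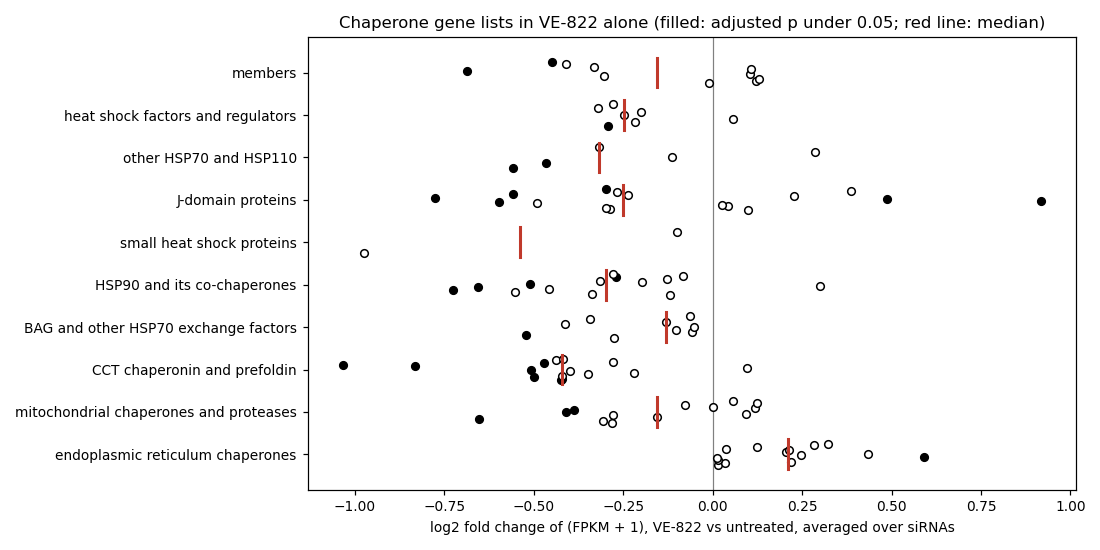
Log2 fold change of FPKM + 1 for VE-822 against untreated, averaged over siRNAs (x axis), for each tested gene of the members and 9 chaperone lists (rows), filled where the adjusted p was under 0.05, with a red line at the list's median. The CCT and prefoldin list has its median at -0.42, endoplasmic reticulum chaperones at 0.21 and the members at -0.16.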

How the data were processed

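One table of FPKM values was deposited by the authors for 16 RNA-seq libraries, made from total RNA with a NEBNext kit per the labels. Per the submitters' processing notes, FastQC, STAR 2.6.1d, featureCounts 1.5.0-p3, DESeq2 1.26.0 and the build hg38 were used upstream. Not given in the sources used here are their parameters, the annotation and whether strand was used. Multiplying FPKM by merged exon length (GENCODE 29) gave whole fragments within 0.01, from which depth was read. The deposited scaling differed from each library's total by a factor of 0.940 to 1.07.

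From these values log2(FPKM + 1) was computed, and genes averaging 1 FPKM or more were tested with limma 3.58.1 (limma-trend, R 4.3.3), using 1 mean per group over 16 libraries (8 residual degrees of freedom, 2.98 from the prior). P-values were adjusted over the 13088 genes by the Benjamini-Hochberg method, and 0.05 was the threshold. Fold changes on this scale understate those of low genes. The scripts were tested on simulated data.

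R1 and R2 numbers paired the libraries outside VE-822 alone, from the correlations given above and not from the labels, so a block in those 6 groups (7 residual degrees of freedom) is printed where it changes a call of a member or the count of a list in the comparisons described. That block sets the VE-822-alone libraries midway between R1 and R2, so its p-values there may be too small. P-values without the block ignore the correlation between libraries of the same number, so they may be too small there as well. Other settings tried were a block over all groups, a pseudocount of 0.1, filters of 0.1 FPKM or none, rescaling to TPM or by median ratios, a robust prior, R1 or R2 alone, and omission of each library or of VE-822 alone.

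The members and gene lists were chosen with earlier results of these data known. All members are described. List genes are named where called, or for a high mean. A further marker gene that was listed is not reported here.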

Additional observations from a re-analysis of the deposited data

How the results depend on the processing

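The number of members called with VE-822 alone, 2, was 1 with no filter on low genes, 1 after TPM rescaling, 5 with a replicate block over all 8 groups, 5 with the replicate block in the 6 groups, and 0 to 4 when 1 library was left out. The number called for the VE-822 difference in HU minus that without HU, 0, was 3 with either replicate block and 0 to 2 with 1 library left out. Neither block changed the count of members called in any other comparison. HSPA1A with VE-822 turned to 0.0181 under median-ratio rescaling and HSPD1 with siSETD2 to 0.0107 under TPM rescaling. Leaving out 1 library gave a range that crossed 0 for HSPA1A with HU (-0.45 to 0.14) and, with VE-822, for HSPA1A (-0.28 to 0.26), HSPA1B (-0.0497 to 0.29), HSPA8 (-0.0217 to 0.28), DNAJB1 (-0.0663 to 0.28) and HSPB1 (-0.0828 to 0.29). With siSETD2 it did so for DNAJB1 (-0.0312 to 0.14), BAG3 (-0.0218 to 0.10) and HSPD1 (-0.17 to 0.0197). The causes were not tested. TPM rescaling moved the median of all genes from 0.01 to 0.14 for siSETD2 against siNT in HU with VE-822, and that of the members from 0.06 to 0.20. Over all settings with a test, the number of genes called ranged from 1772 to 5874 for VE-822 (3237 as reported), 543 to 4329 for the comparison of VE-822 in and without HU (1297), 0 to 508 for siSETD2 averaged over treatments (17), 0 to 209 for HU (14) and 0 to 172 for HU with VE-822 against HU (1). Values from R1 or R2 alone have no test. With 2 libraries a group, a group left with 1 was assumed to vary like the others.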

Other observations

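Outside the chaperones, the 5 genes whose log2 values correlated most with the 10 members on average were TRUB2, at a mean Pearson r of 0.708, HADHB at 0.698, GATB at 0.697, PAAF1 at 0.696 and TRIP4 at 0.694 (16 libraries, a description over libraries that share their R1 or R2 number). The median over all genes tested was 0.02. TRUB2, a mitochondrial pseudouridine synthase, ranged from 4.39 to 7 FPKM, and HADHB, a subunit of the mitochondrial trifunctional protein of fatty acid oxidation, from 19.9 to 40.8 FPKM. GATB, part of a mitochondrial amidotransferase for transfer RNA, and PAAF1, a factor of proteasome assembly, were low, with means of 1.15 and 1.56 FPKM. R1 exceeded R2 in these genes too outside VE-822 alone, with mean ratios of 1.19 to 1.44. Among the members, HSPH1 had the highest mean correlation with the other 9, at 0.602, and HSPB1 the lowest, at 0.386.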
